A study of Rattus norvegicus with 16 samples.

Results

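The genes that copy DNA were followed in primary rat aortic smooth muscle cells in which Nat10 had been lowered. The series set out to study NAT10 in the proliferation and migration of these cells. A list of 35 genes was taken by symbol. It covers origin licensing, the MCM2-7 helicase and its activation, the polymerases, the sliding clamp and its loader, Okazaki fragment joining, nucleotide supply and cyclin E. Of the 35 genes, 34 were found among the 32883 genes of the deposited expression table, and E2f1 was not analysed here. The 33 with a mean level of at least 1 FPKM over the 6 libraries were tested with 13450 genes in all, and Gins3, at a mean of 0.949 FPKM, was described only. FPKM counts fragments per kilobase, so levels can be set side by side between genes.

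Nat10 encodes the enzyme that acetylates cytidine in RNA to N4-acetylcytidine (ac4C). The knockdown cells received an adenovirus carrying a short hairpin RNA against Nat10 and the control cells a control hairpin adenovirus, so cells of both groups carried virus. Both were grown with 20% fetal bovine serum and kept with the virus for 48 h, and input RNA and ac4C-immunoprecipitated RNA came from 3 knockdown and 3 control libraries each. RNA bound to the NAT10 protein (NAT10 RIP) came from 3 libraries of wild type primary smooth muscle cells. These cells were also grown with 20% serum, and their label gives no treatment. The replicates are called biological repeats, but the labels tie none of them to an animal, so the p-values measure the spread between these libraries, which may be technical.

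A cell that prepares to divide first loads the MCM2-7 ring onto replication origins. The origin recognition complex, CDC6 and CDT1 do this loading, and geminin blocks CDT1 once DNA synthesis has begun. CDC45, the GINS complex and MCM10 then turn the ring into an active helicase. Polymerase alpha with primase starts each strand, polymerases delta and epsilon extend it, PCNA holds them on the template, and FEN1 and DNA ligase I join the Okazaki fragments of the lagging strand. In the healthy artery wall smooth muscle cells rarely divide, and these genes are switched on, largely through E2F transcription factors, when the cells enter the cell cycle after injury or in serum.

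The 6 input libraries held 6418188 to 7468615 recovered fragments in knockdown cells and 8171270 to 12066096 in controls. The listed replication genes rested on 12 to 915 fragments per library, with a median of 146.2 over the genes' means. Nat10 stood at 4.38, 3.68 and 4.58 FPKM in knockdown libraries 1 to 3 and at 7.69, 9.22 and 9.95 FPKM in control libraries 1 to 3. The groups did not overlap (log2 change -0.93, unadjusted p = 0.00159, adjusted p = 0.227 in limma), and the adjusted p ran from 0.0399 to 0.797 over 16 other fits. All 10 contractile markers used to check the cell label were detected in these cultures, though Actg2 rested on 1 fragment in knockdown 2. Of the matched markers, 6 of 7 endothelial and 6 of 7 leukocyte averaged under 1 FPKM, with Cd3e, C1qa and Emcn at 0 in every library. Of 8 adventitial fibroblast markers only Cd34 averaged under 1 FPKM. Lum and Dcn of that list averaged 123 and 78.8 FPKM over the 6 libraries. The share of fibroblasts in these cultures was not tested. Some libraries stood apart from others of their group. Between controls 2 and 3 the chi-square of a gene had a median of 0.757, close to the 0.455 of sampling alone. Knockdown 3 lay at 3.63 and 3.56 from these 2 controls, knockdown 1 at 6.08 and 6.28, knockdown 2 at 11.7 and 11.8, and control 1 at 4.44 and 4.59.

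Most replication genes had a positive log2 change after knockdown, but none passed the test over all genes, and much of the difference lay in 1 control library. Of the 33 tested genes, 28 were positive and 5 negative, and the median log2 change was 0.37. Over all tested genes 48.6% were positive and the median was -0.01. By limma 0 of the 33 were called at an adjusted p under 0.05, as were 0% of all genes in either direction, and the lowest adjusted p among them was 0.348. Voom on the recovered fragments and limma with library quality weights also called 0 of the 33. At an unadjusted p under 0.05, 2 were higher and 0 lower, Cdt1 and Rfc4, against 5.53% of all genes higher and 6.95% lower. The 3 knockdown libraries all stood above the 3 controls for 4 of the 33, Cdt1, Orc1, Pola1 and Gins2, and below them for 0, where 9.63% of all tested genes were higher and 10.9% lower without overlap. In bulk RNA, a change in the number of cycling cells and a change in the RNA of each cannot be told apart.

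The pattern across libraries was shared by many of the genes. Control 1 was the lowest of the 6 libraries for 26 of the 33, a place it took for 13.6% of all tested genes. Knockdown 1 was the highest for 19 and knockdown 2 for 11, against 17.9% and 26.3% of all tested genes. The median deviation from a gene's own mean, on the log2(FPKM + 1) scale, was 0.48, 0.20 and -0.18 in knockdown libraries 1 to 3 and -0.66, 0.04 and 0.01 in control libraries 1 to 3. Knockdown 3 thus lay slightly below the closely matched controls 2 and 3. Over the 34 genes with a value, the ratio to the mean of controls 2 and 3 had a median of 1.42 in knockdown 1, 1.13 in knockdown 2, 0.859 in knockdown 3 and 0.574 in control 1. Without control 1 the median log2 change of the 33 genes was 0.17 with 23 positive, and without control 1 and knockdown 2 together it was 0.14, also with 23 positive.

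**Figure D1:**
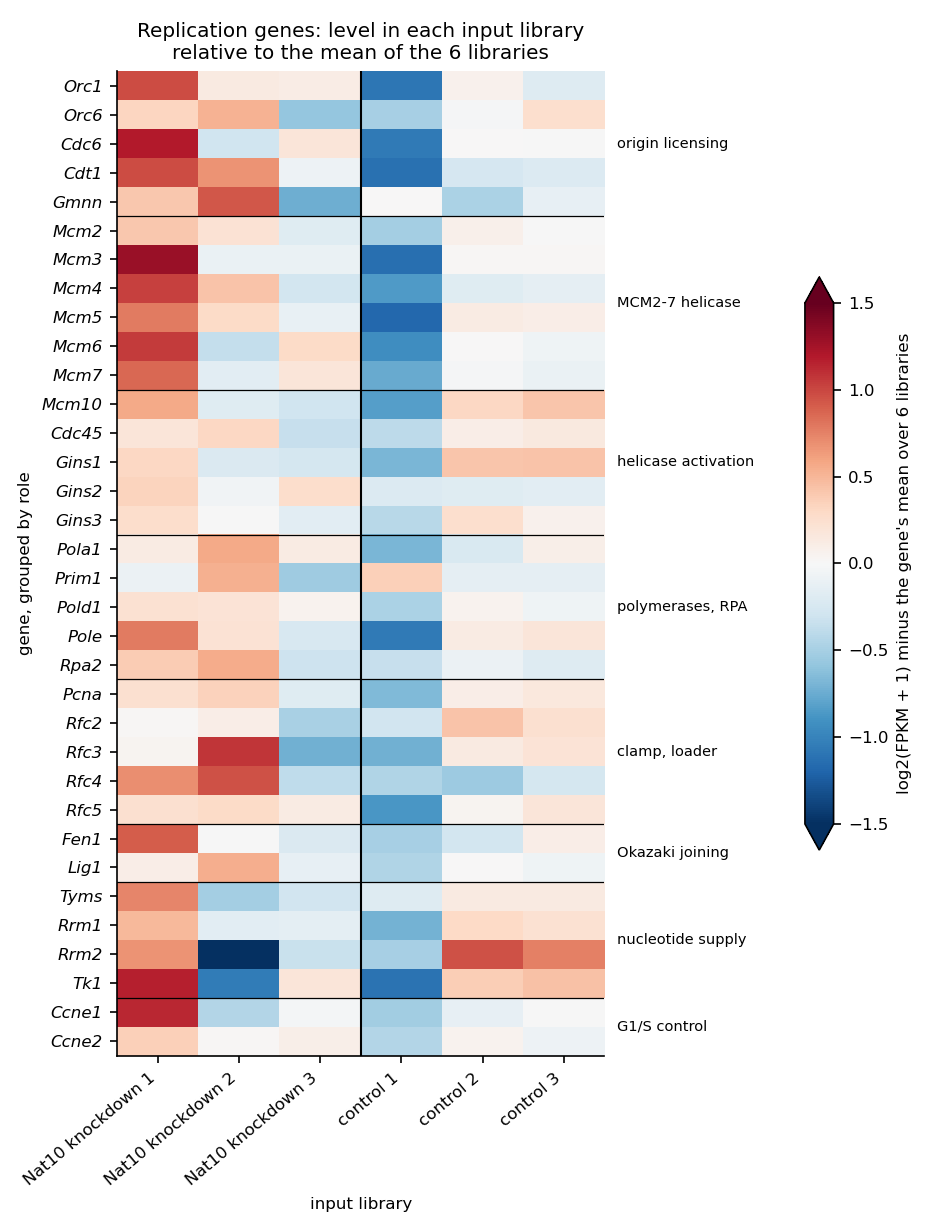
Level of each of the 34 replication genes (rows, grouped by role) in the 3 knockdown and 3 control input libraries (columns), as log2(FPKM + 1) minus the gene's mean over the 6 libraries. Red is above and blue below the gene's mean. The column of control 1 is mostly blue, with a median of -0.66 over the 33 tested genes, and that of knockdown 1 mostly red, with a median of 0.48.

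The same libraries differed in the markers of the cycle and of the contractile state, and the part of either in the replication genes was not tested. All 8 proliferation markers outside replication, such as Mki67 and Top2a, were highest in knockdown 1. Their summed level was 159.6, 90.8 and 64.5 FPKM in knockdown libraries 1 to 3 and 68.97, 104.8 and 110.6 FPKM in control libraries 1 to 3. The 10 contractile markers were all highest in control 1, and their sum was 1483, 784.8 and 3512 FPKM in knockdown libraries against 6474, 4761 and 4995 FPKM in controls. Acta2 and Tagln made most of that sum, at 957 and 2219 FPKM in knockdown 3. Myh11 stood at 6.07 FPKM in that library, against 12.1 to 47.5 FPKM in controls. All 10 contractile markers had a negative change. For 8 of the 10 the groups did not overlap, where 10.9% of all tested genes were lower without overlap. By limma 0 of the 10 were called, and the lowest adjusted p among them was 0.193, for Tpm2. Of 7 tested adventitial fibroblast markers 6 were negative, and the whole list summed to 194 to 267 FPKM in knockdown libraries and 297 to 319 FPKM in controls, endothelial markers to 5.31 to 8.27 against 6.77 to 8.90 FPKM, and leukocyte markers to 5.28 to 11.9 against 3.83 to 5.66 FPKM. Protein-coding genes held 94.6% to 96.5% of fragments in knockdown libraries and 97.47% to 97.6% in controls.

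**Figure D2:**
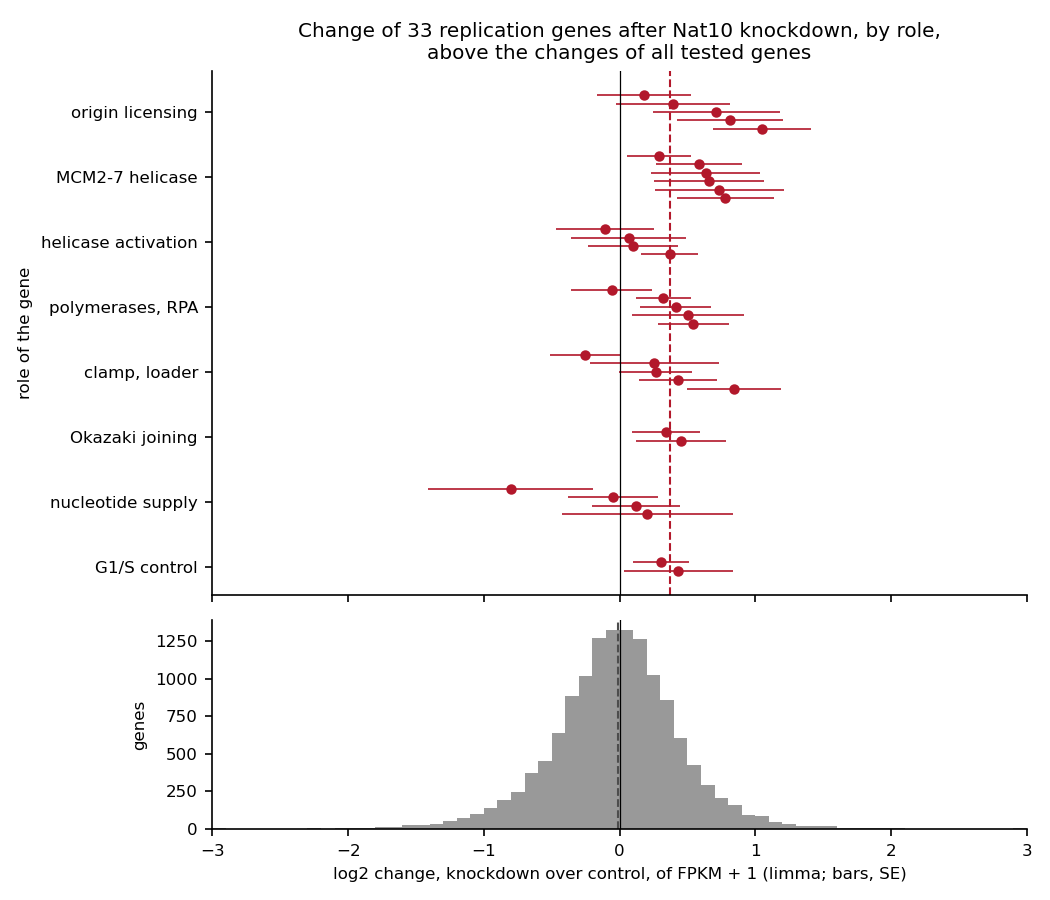
Log2 change, knockdown over control, on the FPKM + 1 scale. Upper panel, the 33 tested replication genes by role, each with its SE from limma and a dashed line at their median of 0.37; lower panel, all 13450 tested genes with a dashed line at their median of -0.01. The origin licensing and MCM2-7 genes all lie right of 0, while nucleotide supply genes lie on both sides.

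Promoters of these genes are shown because E2F sites are the best known common feature of replication genes. The list was taken by symbol, so genes already known for such sites may be in it, and the shares below are descriptive. A RefSeq promoter of assembly GRCr8, running from 250 bases before to 50 bases after the gene's start, was matched for 29 of the 34 genes (not for Ccne2, Cdc6, Mcm4, Orc1 and Rrm2). The E2F-type octamers TTTGGCGC, TTTCCCGC, TTTCGCGC and TTTGCCGC were searched on both strands. At least 1 was found in 15 of the 29 windows (51.7%), in 23 of 60 windows of other replication genes (38.3%), in 4.09% of the windows of tested genes and in 2.14% of all 33469 windows. All 5 matched MCM2-7 genes held one. The CCAAT box, searched as CCAAT on both strands, was in 19 of the 29 windows (65.5%) and in 37.5% of all. The median GC content was 59.7% in the 29 windows, 61.0% for tested genes and 51.7% for all. Below are bases before the start, read along the gene's strand, with the octamers in capitals. Mcm2 lies on the minus strand at chr4:122918095-122918244, Mcm5 on the plus strand at chr19:13488563-13488812, Mcm6 on the minus strand at chr13:42404353-42404602, Mcm7 on the minus strand at chr12:22163179-22163428, Gins1 on the plus strand at chr3:160184770-160184919 and Tyms on the minus strand at chr9:120776084-120776233.
Mcm2: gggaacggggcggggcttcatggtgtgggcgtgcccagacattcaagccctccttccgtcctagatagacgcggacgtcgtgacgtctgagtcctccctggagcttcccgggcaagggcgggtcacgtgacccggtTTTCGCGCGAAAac
Mcm5: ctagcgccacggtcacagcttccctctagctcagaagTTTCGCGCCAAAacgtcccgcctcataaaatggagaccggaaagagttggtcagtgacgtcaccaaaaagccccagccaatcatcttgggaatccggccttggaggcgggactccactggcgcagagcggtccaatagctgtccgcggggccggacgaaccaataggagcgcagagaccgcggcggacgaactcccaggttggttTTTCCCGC
Mcm6: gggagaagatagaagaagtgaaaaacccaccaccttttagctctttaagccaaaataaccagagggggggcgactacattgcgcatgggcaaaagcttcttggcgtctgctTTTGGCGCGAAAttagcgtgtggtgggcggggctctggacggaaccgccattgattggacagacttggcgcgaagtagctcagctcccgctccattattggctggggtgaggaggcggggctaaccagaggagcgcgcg
Mcm7: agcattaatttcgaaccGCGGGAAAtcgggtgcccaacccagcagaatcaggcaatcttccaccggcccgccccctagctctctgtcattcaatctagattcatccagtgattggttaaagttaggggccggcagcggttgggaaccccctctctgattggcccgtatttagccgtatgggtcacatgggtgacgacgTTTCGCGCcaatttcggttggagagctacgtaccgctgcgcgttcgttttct
Gins1: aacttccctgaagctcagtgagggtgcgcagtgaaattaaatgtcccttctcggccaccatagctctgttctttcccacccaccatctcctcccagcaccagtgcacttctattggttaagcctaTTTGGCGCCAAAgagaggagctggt
Tyms: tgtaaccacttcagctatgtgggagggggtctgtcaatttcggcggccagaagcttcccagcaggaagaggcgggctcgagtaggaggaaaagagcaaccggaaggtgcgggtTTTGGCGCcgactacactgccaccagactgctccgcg
In Mcm2, Mcm6, Gins1 and the upstream block of Mcm5 a match on the gene's strand overlaps a match on the opposite strand. The joined block is a palindrome in Mcm2 and Gins1 and close to one in Mcm6 and Mcm5. Mcm5 holds a further match just before its start, Mcm7 holds separate matches far from and nearer to its start, and Tyms holds a single one. A match describes the letters of the window and shows no binding.

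**Figure D3:**
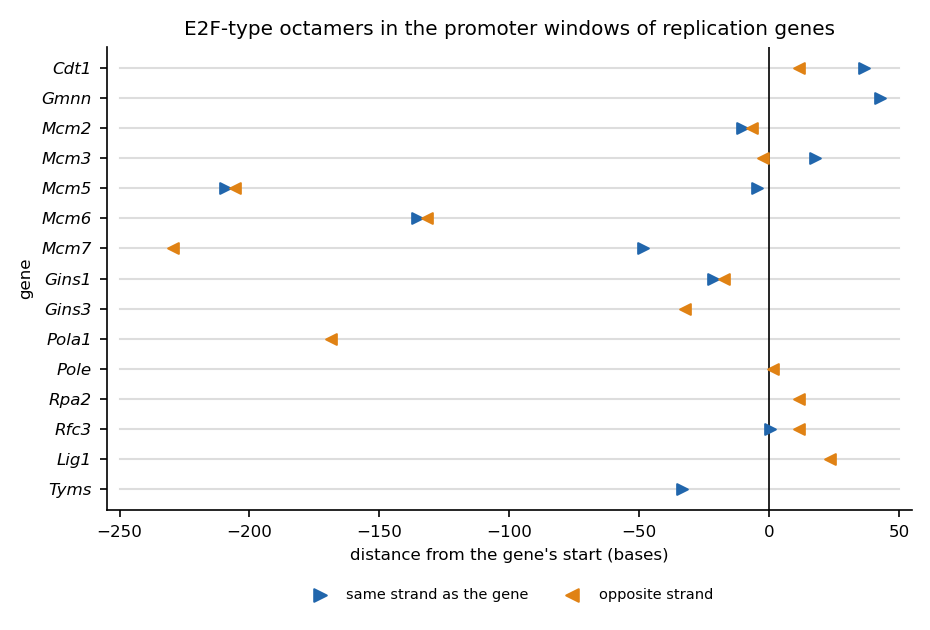
Position of each E2F-type octamer (triangles, pointing along its strand) in the windows of the 15 replication genes that hold one, in bases from the gene's start. In Mcm2, Mcm6, Gins1 and Mcm5 matches on both strands overlap.

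The 5 tested licensing genes were all positive, with a median log2 change of 0.71, which was 0.30 without knockdown 1 and 0.47 without control 1. Cdt1, which brings the MCM ring to the origin, stood at 17.0, 13.5 and 7.64 FPKM in knockdown libraries 1 to 3 and at 3.18, 6.63 and 6.90 FPKM in control libraries 1 to 3. Every knockdown library was above every control, though knockdown 3 only narrowly above controls 2 and 3. Cdt1 averaged 12.7 ± 4.71 FPKM in knockdown cells and 5.57 ± 2.07 FPKM in controls (SD, n = 3 each). This is a log2 change of 1.05 (SE 0.36, unadjusted p = 0.0220, limma adjusted p = 0.348). Orc1, an ATP-binding subunit of the origin recognition complex, stood at 7.01, 3.45 and 3.41 FPKM in knockdown libraries and at 0.919, 3.26 and 2.55 FPKM in controls. Its groups did not overlap either, but control 1 and knockdown 1 made most of the distance (log2 change 0.81, SE 0.39, limma adjusted p = 0.449). Cdc6, the loading ATPase, stood at 8.24, 2.29 and 3.61 FPKM in knockdown libraries and at 0.940, 3.06 and 3.04 FPKM in controls, with overlap. Orc6, the smallest origin recognition subunit, averaged 7.24 ± 2.94 FPKM in knockdown cells and 6.07 ± 1.78 FPKM in controls, and Gmnn, which encodes geminin, 6.35 ± 3.77 FPKM in knockdown cells and 4.08 ± 0.844 FPKM in controls. Both were highest in knockdown 2 and lowest in knockdown 3 and so did not follow the licensing factors.

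The 6 genes of the MCM2-7 ring, whose promoters are shown above for all but Mcm3 and Mcm4, followed 1 pattern across the libraries. Each was highest in knockdown 1 and lowest in control 1, all 6 log2 changes were positive with a median of 0.65, and in none were the groups apart. The median was 0.30 without knockdown 1 and 0.35 without control 1. Their summed level was 173, 95.2 and 87.8 FPKM in knockdown libraries 1 to 3 and 46.9, 89.2 and 86.5 FPKM in control libraries 1 to 3. Knockdown libraries 2 and 3 thus lay beside controls 2 and 3, and the distance between the groups lay in knockdown 1 and control 1. The subunits stood close to each other in level, the highest at 1.76, 2.29 and 1.84 times the lowest in knockdown libraries and at 2.48, 1.55 and 1.45 times in controls.

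Mcm4 stood at 37.4, 24.4 and 14.7 FPKM in knockdown libraries and at 9.50, 15.7 and 16.3 FPKM in controls. Knockdown 3 was below controls 2 and 3, so the groups overlapped (log2 change 0.78, SE 0.36, unadjusted p = 0.0662, adjusted p = 0.430 in limma). Mcm6 stood at 33.7, 12.1 and 19.4 FPKM in knockdown libraries and at 7.75, 15.8 and 14.97 FPKM in controls, and Mcm7 at 28.4, 13.5 and 17.3 FPKM in knockdown libraries and at 8.57, 14.99 and 14.1 FPKM in controls. In both, knockdown 2 was below controls 2 and 3 (log2 change 0.66, SE 0.41 for Mcm6 and 0.58, SE 0.32 for Mcm7). Mcm3 stood at 29.5, 10.7 and 10.6 FPKM in knockdown libraries and at 4.68, 11.6 and 11.6 FPKM in controls. Mcm2 stood at 22.6, 19.8 and 14.8 FPKM in knockdown libraries and at 11.6, 17.9 and 16.8 FPKM in controls, the smallest change of the 6 at 0.29 (SE 0.23). Mcm3 in knockdown 1 stood far above its other libraries. Mcm5 averaged 15.7 ± 5.23 FPKM in knockdown cells and 10.3 ± 4.77 FPKM in controls. Mcm7 hosts the microRNA genes Mir25, Mir93 and Mir106b within its span, so fragments there may be split between them.

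**Figure D4:**
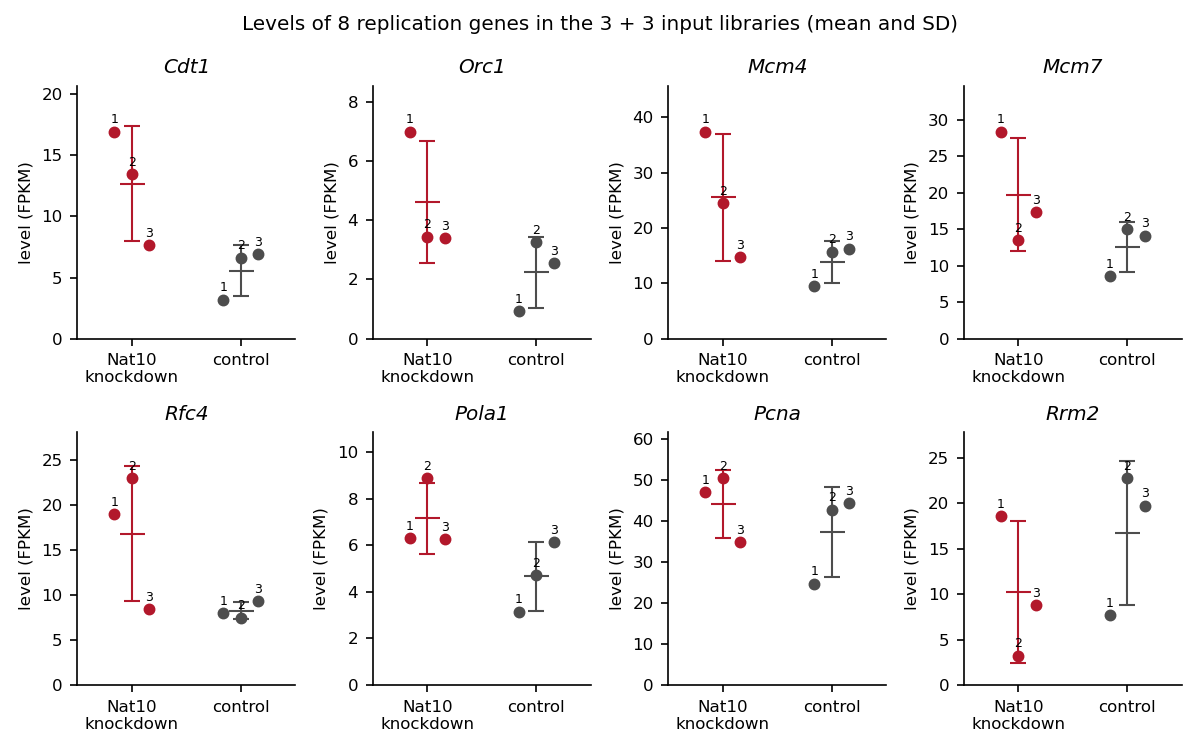
Level in FPKM of 8 replication genes in each knockdown and control input library (points, numbered by replicate), with mean and SD (n = 3 each). Knockdown 1 and control 1 are the highest and lowest points for Mcm4 and Mcm7, the groups are apart for Cdt1, Orc1 and Pola1, and knockdown 2 is the lowest point for Rrm2.

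The genes that activate the ring had smaller differences in mean, with a median change of 0.08 over 4 tested. That median was -0.084 without knockdown 1, -0.20 without control 1 and 0.20 to 0.26 without control 2, control 3 or knockdown 3. Gins2, a GINS subunit, stood at 4.89, 3.51 and 4.60 FPKM in knockdown libraries and at 3.03, 3.11 and 3.16 FPKM in controls. The controls were nearly equal and all below the knockdown libraries (log2 change 0.37, SE 0.21, unadjusted p = 0.119, adjusted p = 0.505 in limma). Its span overlaps that of Gse1, and stranded counting is not stated. Gins1 stood at 4.69, 2.96 and 2.83 FPKM in knockdown libraries and at 1.86, 5.11 and 5.15 FPKM in controls, with a negative change of -0.11 (SE 0.36). Control 1 was the lowest library and controls 2 and 3 were the highest. Mcm10, which helps the helicase start, stood at 3.85, 1.89 and 1.67 FPKM in knockdown libraries and at 0.845, 3.04 and 3.37 FPKM in controls. Cdc45 averaged 1.36 ± 0.528 FPKM in knockdown cells and 1.20 ± 0.429 FPKM in controls. Gins3, below the filter, stood at 1.31, 0.922 and 0.728 FPKM in knockdown libraries and at 0.436, 1.29 and 1.01 FPKM in controls, on 12 to 24 fragments. The groups of these 3 genes overlapped, and each was lowest in control 1.

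Of the 5 polymerase and single-strand binding genes 3 were highest in knockdown 2, as were 4 of the 5 clamp and loader genes and 0 of the 6 MCM2-7 genes. Pola1, the catalytic subunit of polymerase alpha, stood at 6.29, 8.88 and 6.27 FPKM in knockdown libraries and at 3.15, 4.71 and 6.12 FPKM in controls. The groups were apart, with control 3 just below knockdown 3 (log2 change 0.54, SE 0.26, unadjusted p = 0.0759, adjusted p = 0.449 in limma). Prim1, the primase subunit that lays the RNA primer, had the highest level of the role at 19.3, 30.2 and 13.8 FPKM in knockdown libraries and 26.6, 18.5 and 18.6 FPKM in controls. It was the only one of the role not lowest in control 1, and its controls lay within the range of the knockdown libraries (log2 change -0.058, SE 0.30). Pole, the leading strand polymerase, stood at 8.14, 5.15 and 3.51 FPKM in knockdown libraries and at 1.55, 4.77 and 5.03 FPKM in controls. Rpa2, a subunit of the single-strand binding protein, stood at 9.38, 10.7 and 5.39 FPKM in knockdown libraries and at 5.27, 6.50 and 5.96 FPKM in controls. In both, knockdown 3 lay among the controls. Pold1, the catalytic subunit of polymerase delta, averaged 7.81 ± 0.594 FPKM in knockdown cells and 6.13 ± 1.30 FPKM in controls.

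Of the clamp and its loader, Rfc4 differed most and Rfc2 in the other direction. Rfc4 stood at 18.9, 23.0 and 8.46 FPKM in knockdown libraries and at 8.01, 7.46 and 9.28 FPKM in controls. Knockdown libraries 1 and 2 were above all controls, while knockdown 3 lay among them. Rfc4 averaged 16.8 ± 7.50 FPKM in knockdown cells and 8.25 ± 0.931 FPKM in controls (SD, n = 3 each). This is a log2 change of 0.84 (SE 0.35, unadjusted p = 0.0452, limma adjusted p = 0.390). Rfc3 stood at 10.3, 22.2 and 5.70 FPKM in knockdown libraries and at 5.69, 11.1 and 11.7 FPKM in controls, and Rfc5 at 13.9, 14.3 and 12.7 FPKM in knockdown libraries and at 5.90, 11.9 and 13.3 FPKM in controls. In both, knockdown 3 lay among the controls. Rfc2 averaged 7.01 ± 1.64 FPKM in knockdown cells and 8.59 ± 2.32 FPKM in controls (log2 change -0.25, SE 0.26). Of these 4 small subunits of the loader, Rfc2 was highest in control 2 and the other 3 in knockdown 2. Pcna, the clamp and the most abundant of the listed genes, stood at 47.1, 50.6 and 34.9 FPKM in knockdown libraries and at 24.7, 42.8 and 44.5 FPKM in controls. Knockdown 3 was below controls 2 and 3 (log2 change 0.27, SE 0.27, limma adjusted p = 0.717).

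Fen1, the flap nuclease, stood at 14.03, 6.93 and 5.87 FPKM in knockdown libraries and at 4.64, 5.60 and 7.55 FPKM in controls. Lig1, DNA ligase I, stood at 5.82, 8.26 and 4.84 FPKM in knockdown libraries and at 3.64, 5.41 and 5.10 FPKM in controls. The groups overlapped for both genes, with log2 changes of 0.45 (SE 0.33) and 0.34 (SE 0.25). Fen1 overlaps the span of Tmem258 and Lig1 that of Zswim9.

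The enzymes of nucleotide supply had no common direction, with 2 of 4 positive and a median log2 change of 0.04, and a median deviation of -0.78 in knockdown 2. Without knockdown 1 or control 1 all 4 were negative, with medians of -0.38 and -0.25, and with another library left out the median was 0.12 to 0.21. Rrm2, the small subunit of ribonucleotide reductase, averaged 10.2 ± 7.80 FPKM in knockdown cells and 16.7 ± 7.98 FPKM in controls. Its knockdown 2 library, at 3.24 FPKM, was the lowest of the 6, against 18.6 and 8.78 FPKM in the other knockdown libraries and 7.71, 22.8 and 19.7 FPKM in controls (log2 change -0.80, SE 0.61, limma adjusted p = 0.623). The span of Rrm2 overlaps that of Cys1, at a mean of 5.49 FPKM. Tk1, the thymidine kinase of the salvage route, stood at 34.9, 6.74 and 17.1 FPKM in knockdown libraries and at 6.39, 19.6 and 20.6 FPKM in controls. Knockdown 2 thus had a low Rrm2 and Tk1 beside a high Rfc3 and Rfc4. Rrm1, the large reductase subunit, averaged 17.6 ± 5.03 FPKM in knockdown cells and 16.5 ± 5.98 FPKM in controls, and Tyms, thymidylate synthase, 12.1 ± 6.46 FPKM in knockdown cells and 11.7 ± 1.61 FPKM in controls. Of cyclin E, the partner of CDK2 at the entry into S phase, Ccne1 stood at 19.5, 5.89 and 8.16 FPKM in knockdown libraries and at 5.56, 7.60 and 8.33 FPKM in controls. Ccne2 stood at 10.7, 8.25 and 8.67 FPKM in knockdown libraries and at 5.71, 8.50 and 7.65 FPKM in controls. The span of Ccne2 overlaps that of Ints8. In both cyclins knockdown 1 was the highest library and control 1 the lowest. For Ccne1 knockdown 2 lay close to control 1, and for Ccne2 the other libraries lay at 7.65 to 8.67 FPKM.

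Of 69 further genes of replication and G1/S control, 67 had a value, 64 were tested and 49 of those were positive, against 48.6% of all tested genes. Their median log2 change was 0.19, or 0.088 without knockdown 1, 0.12 without control 1, 0.092 without control 1 and knockdown 2 and 0.31 to 0.36 without control 2 or knockdown 3. None was called by limma, an unadjusted p under 0.05 was reached by 9 higher genes and 1 lower gene (5.53% and 6.95% of all tested genes), and the groups were apart and higher for 10 and apart and lower for 1 (9.63% and 10.9%). With 1 library left out 2 to 16 were higher at that p and 0 to 3 lower. There were 2 higher and 3 lower without knockdown 1, 2 and 0 without control 2, and 16 and 1 without knockdown 3. Over all 13450 tested genes 744 were higher and 935 lower with every library kept. Those counts were 561 and 678 without knockdown 1, 365 and 468 without control 2, and 1146 and 1431 without knockdown 3. Among the 64 replication genes, the 4 with the smallest p all stood higher without overlap and did not pass. Topbp1, which helps fire origins, stood at 18.6, 19.8 and 11.9 FPKM in knockdown libraries and at 5.17, 8.56 and 9.74 FPKM in controls (log2 change 1.02, SE 0.28, unadjusted p = 0.00885, adjusted p = 0.292 in limma). Every knockdown library exceeded the highest control. Pole3, a histone-fold subunit of polymerase epsilon, stood at 4.68, 8.11 and 4.30 FPKM in knockdown libraries and at 2.58, 3.21 and 2.20 FPKM in controls, on 8 to 29 fragments. Cdkn2b, an inhibitor of CDK4 and CDK6, stood at 8.30, 7.38 and 7.22 FPKM in knockdown libraries and at 5.81, 3.88 and 4.72 FPKM in controls. Cdc25a, the phosphatase that activates CDK2, stood at 15.1, 10.3 and 13.1 FPKM in knockdown libraries and at 8.39, 8.91 and 8.75 FPKM in controls. Genes that drive and genes that restrain S phase were thus among them. Cdkn1a, which encodes the inhibitor p21 of cyclin E with CDK2, stood at 292.5, 408 and 138 FPKM in knockdown libraries and at 168.5, 111 and 107 FPKM in controls. Knockdown 3 lay below control 1 (log2 change 1.01, SE 0.41, unadjusted p = 0.0433, adjusted p = 0.387 in limma). The lower gene, Pold2 of polymerase delta, named after its values were seen, averaged 47.5 ± 8.59 FPKM in knockdown cells and 65.5 ± 2.39 FPKM in controls.

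The ac4C lists ask whether replication transcripts carried fewer acetylated sites when Nat10 was lowered. Of the 34 genes, those with at least 1 peak numbered 6, 3 and 3 in knockdown lists 1 to 3 and 19, 14 and 5 in control lists 1 to 3, a mean difference of -8.67 genes (exact permutation p = 0.2, two-sided, where 3 against 3 lists can reach 0.1). Of all tested genes, 15.4% to 18.6% had a peak in a knockdown list and 41.2%, 40.2% and 20.4% in control lists 1 to 3. Most rows of control lists 1 and 2 carry a single p each, 0.045 and 0.046, and without them the controls held 10, 5 and 5 genes. The difference was then -2.67 genes (exact permutation p = 0.3), and at a p of at most 0.001 it was 0.667 in the other direction, with 5, 1 and 2 genes in knockdown lists and 4, 1 and 1 in controls (exact permutation p = 0.7). At that stricter p 10.1%, 8.22% and 12.2% of all tested genes had a peak in knockdown lists 1 to 3. In control lists 1 to 3 the shares were 11.8%, 8.16% and 12.6%. Without control list 1 the first difference was -5.5 genes and the second -1. Without the single-p rows 12.2% to 20.4% of all tested genes had a peak per control list. The values below leave those rows out.

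Over all lists 16 of the 33 tested replication genes had a peak in at least 1, where 47.6% of all tested genes did. A peak in control lists only was found for 8 of the 33 (14.7% of all tested genes), in knockdown lists only for 2 (13.7%), and in both for 6 (19.3%). Genes with a peak were better covered: the median was 202 input fragments for the 16 and 128 for the 17 without, against 347 and 79.3 over all tested genes. Of the 4 genes whose expression groups did not overlap, Pola1 had a peak and Cdt1, Orc1 and Gins2 had none.

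Mcm4 was the only one with a peak in all 3 knockdown lists, as 4.72% of all tested genes had, and the only one with a peak in at least 2 lists of each group (6.58%). Its peaks lay within chr11:89524415-89524832 on the plus strand, in the coordinates of the deposited lists. The rat build in the submitters' notes is rn6. Knockdown 1 and control 3 listed the same 180 bases (the authors' p of 6.8e-05 in knockdown 1 and 0.00056 in control 3), control 1 a stretch further along that the peak of knockdown 3 reached into, and control 2 none. The ring gene with a peak in controls only was Mcm7. Its peak at chr12:19306607-19306816 on the minus strand had the authors' p of 1.6e-93 in the first control list. The third control list held 121 bases of it at the authors' p of 0.0018. The second control list and all knockdown lists had no peak there or elsewhere in the gene. Mcm2 (knockdown 2) and Mcm6 (knockdown 1) had a peak in 1 knockdown list each and in no control, and Mcm3 in knockdown 3 and control 1 at different positions.

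Fen1 had a peak in knockdown 1 and, at another position of the gene, in controls 1 and 3, whose peaks share 120 bases. Pole had peaks in knockdown 1 and 2 and in control 2, with 61 bases in common between the nearest pair. Ccne2, Gins3 and Rfc5 had 1 peak in a list of each group without shared bases. In controls only, Mcm10 and Rfc3 had peaks in 2 lists at different positions, and Ccne1, Cdc6, Lig1, Pola1 and Rpa2 in 1 list each. Shared bases between the control lists were thus the case for Mcm7 and Fen1 alone among these genes. Peak lists hold no read totals, so the depth behind a missing peak is unknown.

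**Figure D5:**
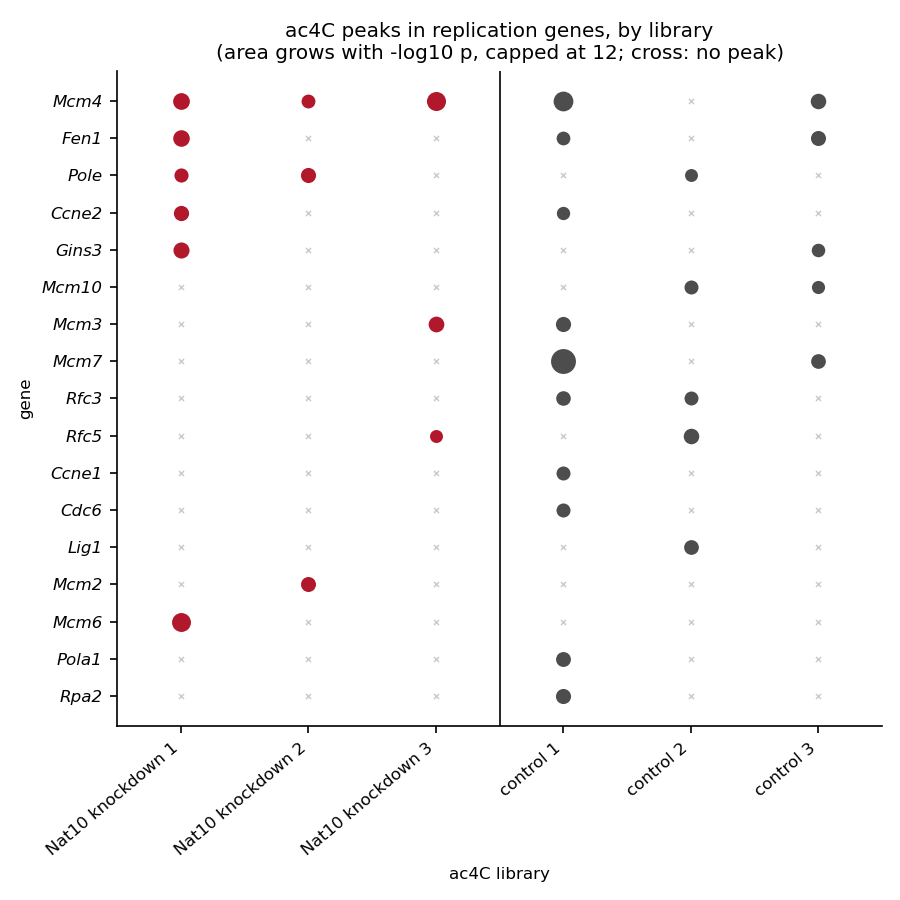
Replication genes with an ac4C peak in at least 1 list (rows) in the 3 knockdown and 3 control libraries (columns), leaving out rows of the single p-values; point area grows with -log10 of the smallest p of the gene in that list. Mcm4 has points in all 3 knockdown lists and in controls 1 and 3, and Mcm7 in controls 1 and 3.

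In the NAT10 RIP no listed replication gene had a peak. The 3 lists held 586, 563 and 548 genes, and 0 of the 34 were in any of them, where 5.93% of all tested genes were in at least 1 and 2.68% in all 3. Of the 67 other replication genes with a value, Rfc1, the large subunit of the clamp loader, had peaks in lists 1 and 2. These lay at different positions without shared bases, with log2 enrichments of 1.56 to 2.11 as the authors give them. Genes of the RIP lists were longer and more abundant than the replication genes. The 361 genes in all 3 lists had a median exon length of 5550 nt and a median level of 37.3 FPKM, against 2437 nt and 8.69 FPKM for the 34 replication genes and 2054 nt and 10.01 FPKM for all tested genes. The RIP cells were not the knockdown cultures, and the part of length and level in the absence of peaks was not tested.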

How the data were processed

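Expression was deposited by the authors as FPKM per Ensembl gene for 6 input libraries, scaled for library size. DESeq2, HOMER 4.10.4, featureCounts 1.6.3, HISAT2 2.1.0 and cutadapt 2.5 appear in the submitters' processing notes beside the builds GRCh38, GRCm38 and rn6, with no roles. The authors deposited an ac4C peak list per library with a p-value per peak. The deposited NAT10 RIP lists give, per the file headers, a log2 enrichment, p-values, a score and their −log10 values, of which the last 2 kinds were not used. Peak callers and the strandedness of counting were not given in the sources used here, and the RIP control library was not analysed here. The deposited FPKM let whole fragments be worked out for 21401 of 21401 genes above 0 (tolerance 2e-08 relative, 1e-06 absolute) and for 0 of 500 altered genes, and 11482 genes were at 0 in every library. Genes with a mean of at least 1 FPKM were tested with limma 3.58.1 (R 4.3.3) on log2(FPKM + 1), a scale that understates the change of low genes, with group alone in the model, a mean-variance trend and p-values (two-sided) adjusted by Benjamini-Hochberg over all tested genes at 0.05. Voom on the recovered fragments also called 0 genes. Other fits changed the pseudocount, filter, scaling, weights, pairing and libraries. ac4C counts were compared by an exact permutation test over libraries. Coordinates count from 1. The steps were tested on simulated data. For limma these gave every gene and library the same spread, so the test does not cover libraries that stand apart as they do here. Genes, lists and tests were chosen with earlier results of these data known. Values in every library were given for the 8 listed genes with the smallest p, those with an ac4C or RIP peak, the highest of each role, 4 other replication genes, Cdkn1a and Nat10. RefSeq spans (GRCr8) overlap another gene for 11 of the 34 genes.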

Additional observations from a re-analysis of the deposited data

How the results depend on the processing

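Over all tested genes limma called 0, against 335 (120 higher, 215 lower) with library quality weights and 0 to 1 with 1 library left out. With those weights Nat10 had a log2 change of -0.97 and an adjusted p of 0.0399. None of the 33 listed and 64 other tested replication genes passed in any of the 16 other fits, 1 of which kept 26 and 43 of them. The count of listed genes at an unadjusted p under 0.05 was 2, 0 without control 1 or without knockdown 1, 5 without knockdown 3 and 10 with quality weights. All of these were higher. Over all 13450 tested genes, 744 were higher and 935 lower at that p. Those counts were 586 and 772 without control 1 and 561 and 678 without knockdown 1. They rose to 1146 and 1431 without knockdown 3 and to 1610 and 1910 with quality weights. The median change of the 33 genes was 0.14 to 0.51 over all fits, and 22 of them kept their direction in each. The numbers shared by the groups did not pair the samples (correlations of deviations -0.211, -0.284 and 0.179), and with the replicate block 0 genes were called, the median was 0.37 and Nat10 had an adjusted p of 0.554.

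The other 11 turned in at least 1 fit, and the cause was not tested. With 1 library left out the log2 change ran from -0.023 to 0.76 for Ccne1, -0.075 to 0.29 for Cdc45, -0.47 to 0.081 for Gins1, -0.33 to 0.29 for Mcm10, -0.035 to 0.51 for Orc6, -0.34 to 0.20 for Prim1, -0.22 to 0.68 for Rfc3, -0.21 to 0.30 for Rrm1, -0.33 to 0.78 for Tk1 and -0.42 to 0.20 for Tyms. Without control 1 and knockdown 2 it was -0.21 for Cdc45, -0.23 for Mcm10, -0.24 for Orc6, -0.10 for Pcna, -0.51 for Rfc3, -0.096 for Rrm1 and 0.088 for Tyms. With quality weights it was -0.0012 for Cdc45, -0.11 for Rfc3 and 0.26 for Tyms, and with controls 2 and 3 averaged 0.078 for Gins1 and 0.0074 for Tyms. For ac4C the difference in genes was 0.667 at a p of at most 0.001 and -12.5 to -5.5 with 1 list left out. Without control 3 the exact permutation p was 0.1, the smallest that 3 against 2 lists can reach. Only the control lists with single-p rows, 26881 and 27673 of them, were then left, so that comparison cannot separate knockdown from those rows. Without the single-p rows and 1 list, alternatives chosen after seeing the data, the difference was -3.67 to -1 genes. The RIP count stayed at 0 of 34 in all alternatives run. Genes on few fragments, Gins3 above all, limit what 3 libraries a group can show.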
